A study of Sus scrofa with 24 samples.

Results

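The expression of 10 contractile and myofibroblast genes was followed in porcine preadipocytes driven towards fat cells in culture. The genes were ACTA2, ACTG2, TAGLN, CNN1, MYLK, MYL9, TPM1, TPM2, DES and LMOD1, chosen by symbol, and 10 of 10 were found among the 25462 genes of the expression table and passed the filter on low values. Some were chosen because they had stood out in these data. DES from day 0 to day 2 in intramuscular cells, ACTA2 from day 2 to day 4 in subcutaneous cells and between depots on day 4, and MYLK from day 4 to day 8 in intramuscular cells had been among the largest changes. Values from those comparisons, and from the comparisons of changes between depots that contain them, are therefore given as a description without a p-value. Other comparisons of these genes share libraries with them, so their p-values are not independent of the choice.

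The cells were primary preadipocytes of 6-day-old Yorkshire piglets from back subcutaneous fat (BF) and from the longissimus dorsi muscle (intramuscular, IMF), which are called 2 depots here. Each was sampled with 3 replicates before induction (day 0) and on days 2, 4 and 8 after it, giving 8 groups (BF-0d to BF-8d and IMF-0d to IMF-8d) and 24 RNA libraries. Per the methods, the cells received IBMX, dexamethasone and insulin up to day 2, insulin up to day 4 and growth medium after that, so induction and time in culture cannot be told apart. Per the methods, back fat and muscle tissue of 3 piglets were digested with collagenase, and no sort for a cell type is described. The labels do not say whether a replicate is a piglet, so p-values measure only the spread between these samples, which may be technical. Fewer cells of a type and less RNA per cell cannot be told apart in bulk samples.

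Contractile cells pull by sliding myosin along actin filaments. In smooth muscle and in myofibroblasts, the contractile fibroblasts of healing or cultured tissue, this is switched on when calcium-bound calmodulin activates myosin light chain kinase, which phosphorylates the regulatory light chain of myosin. Many of the genes are under control of serum response factor (SRF) and its coactivators, which respond to the state of the actin cytoskeleton, and precursors of fat cells are known to lose stress fibres as they round up. ACTA2 and ACTG2 encode smooth muscle actins, MYLK the myosin light chain kinase and MYL9 a regulatory light chain. TPM1 and TPM2 encode tropomyosins, which lie along actin filaments, while TAGLN (transgelin) and CNN1 (calponin) encode actin-binding proteins used as smooth muscle markers. LMOD1 encodes a leiomodin that nucleates actin filaments, and DES encodes desmin, an intermediate filament protein of muscle cells.

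The genes lie on 9 chromosomes of Sscrofa11.1, the build the authors used, with positions from the RefSeq annotation. ACTA2 (ENSSSCG00000010447) is on the minus strand at chr14:100868145-100886732, and ACTG2 (ENSSSCG00000008294) on the minus strand at chr3:69097366-69121542. TAGLN (ENSSSCG00000015073) is on the plus strand at chr9:44561756-44567385, CNN1 (ENSSSCG00000013614) on the plus strand at chr2:70183370-70190756 and MYL9 (ENSSSCG00000036402) on the plus strand at chr17:39788165-39795240. MYLK (ENSSSCG00000011867) spans chr13:136509878-136809674 on the plus strand and DES (ENSSSCG00000020785) chr15:121428539-121435426 on the plus strand. Both tropomyosin genes are on the minus strand of chromosome 1, TPM1 (ENSSSCG00000004570) at chr1:108986981-109016090 and TPM2 (ENSSSCG00000005316) at chr1:236402249-236410390. LMOD1 (ENSSSCG00000031201) is on the minus strand at chr10:24165293-24194823.

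Stretches upstream of 5 of the genes are shown because they hold the letters of the CArG box, the element that SRF binds, and because the genes moved together. A CArG box is a pair of C, a run of A or T letters and a pair of G, and a CArG-like box has 1 G or C within the run. Both strands were searched from 250 bases before to 50 after each transcript start. Capitals mark the boxes, and each sequence runs 5′ to 3′ on the strand of its gene. ACTA2 (chr14:100886768-100886887, minus strand) held CArG-like boxes that begin 125 and 75 bases before the start, and ACTG2 (chr3:69121651-69121720, minus strand) held 1 at 148 bases.
ACTA2: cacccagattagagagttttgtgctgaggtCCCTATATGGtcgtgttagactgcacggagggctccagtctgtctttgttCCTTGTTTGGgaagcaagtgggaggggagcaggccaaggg
ACTG2: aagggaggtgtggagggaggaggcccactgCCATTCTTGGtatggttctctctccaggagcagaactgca
TAGLN held a CArG box at 191 bases before its start (chr9:44561535-44561604, plus strand).
TAGLN: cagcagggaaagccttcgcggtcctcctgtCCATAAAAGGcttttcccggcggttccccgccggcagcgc
MYL9 held a CArG box at 70 bases (chr17:39788065-39788134, plus strand, within an intron of a long noncoding RNA annotated on the other strand). CNN1 held 1 at 29 bases before an internal transcript start (chr2:70184423-70184481, plus strand, intronic in the longer transcript).
MYL9: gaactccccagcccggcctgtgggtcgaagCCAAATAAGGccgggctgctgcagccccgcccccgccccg
CNN1: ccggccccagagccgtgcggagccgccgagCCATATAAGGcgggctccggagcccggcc
A CArG box stood at the gene start of 2 of the 10 genes and at any annotated start of 3 of 10. Of all 19559 protein-coding genes, 1.53% had one at the gene start and 2.48% at any start. A CArG-like box stood at the gene start of 3 of the 10 genes (ACTA2, ACTG2 and MYL9) and of 6.73% of all. That of MYL9 was not wholly upstream of the start and is not shown. These letters were not found in the windows of DES, LMOD1, MYLK, TPM1 or TPM2. A match describes the letters only.

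Levels are in FPKM, a unit in which fragments are divided by the length of the transcript and the size of the library, so they can be compared between genes per length. The FPKM of a library summed to 307967 to 385768, and 9985 to 10858 genes reached 1 FPKM. FPKM keep no read counts, so depth is unknown and no counting interval can be given. The third BF-2d library stood apart. It was the highest of its group for 10 of the 10 genes, at 2.32 to 5.74 times the next highest, and lay between 33.6 and 75.9% of the BF-0d mean. LPL, the lipoprotein lipase gene that rises as fat cells form, was at 6.71 FPKM there and at 82.1 and 77.7 FPKM in the other BF-2d libraries. Its level alone made BF-2d overlap with IMF-8d for ACTA2, ACTG2, TAGLN, TPM2, DES and LMOD1 and with IMF-2d for DES. Whether this library carries the right label was not tested, and every BF-2d mean and comparison includes it unless stated. Counts of called genes from comparisons with BF-2d are given with and without it.

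Together the 10 genes took 1.06% ± 0.0181 (SD, n = 3) of the summed FPKM of BF-0d libraries and 1.37% ± 0.103 (SD, n = 3) of IMF-0d libraries. BF-2d, BF-4d and BF-8d libraries held 0.223% ± 0.208, 0.0416% ± 0.0138 and 0.0415% ± 0.00682 (SD, n = 3). The third BF-2d library was at 0.464%, and the other BF-2d libraries were at 0.0900 and 0.116%. IMF-2d, IMF-4d and IMF-8d libraries held 0.740% ± 0.0998, 0.897% ± 0.0202 and 0.215% ± 0.0240 (SD, n = 3). The share in BF cells was near its lowest by day 4, whereas in IMF cells it declined between day 0 and day 2 and again between day 4 and day 8. ACTA2 alone made up 47.4 to 47.8% of the summed level of the 10 genes in BF-0d libraries and 2.83 to 7.88% in BF-8d libraries. In IMF libraries its part was 39.2 to 40.2% on day 0 and 21.8 to 26.4% on day 8.

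**Figure D1:**
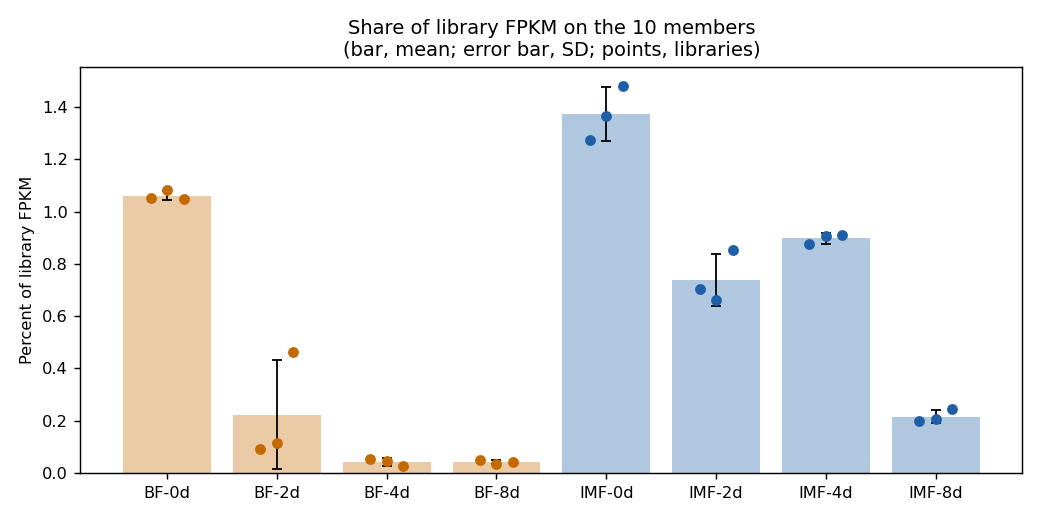
Share of the summed FPKM of a library held by the 10 contractile genes (percent, y axis) in the 8 groups (x axis); bars are means, error bars SD, and points the 3 libraries of a group. BF fell from 1.06% on day 0 to 0.0416% on day 4, while IMF was at 0.897% on day 4 and 0.215% on day 8, and 1 BF-2d library sat at 0.464%.

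ACTA2, the smooth muscle alpha-actin that marks myofibroblasts, had the highest level per length of the 10 genes on day 0. In BF libraries it was at 1550.4, 1609 and 1641 FPKM on day 0, at 61.2, 102 and 588 FPKM on day 2, at 16.2, 22.1 and 7.38 FPKM on day 4 and at 12.1, 3.57 and 3.86 FPKM on day 8. In IMF libraries it was at 1698, 1841 and 2128 FPKM on day 0, at 848, 786 and 1086 FPKM on day 2, at 1104, 1129 and 1143 FPKM on day 4 and at 184, 189.9 and 199.6 FPKM on day 8. The depots did not overlap on any of the 4 days, and the BF-4d and BF-8d libraries overlapped with each other. The BF-4d mean was 0.953% of the BF-0d mean and the IMF-4d mean 59.6% of the IMF-0d mean. From day 0 to day 8 the fall was 7.92 on the log2 scale in BF (log2 difference -7.92, SE 0.55, limma adjusted p 1.1e-09) and 3.29 in IMF (-3.29, SE 0.55, adjusted p 8.8e-05). Ordered by level, the groups ran IMF-0d, BF-0d, IMF-4d, IMF-2d, BF-2d, IMF-8d, BF-4d and BF-8d, with overlap between BF-2d and IMF-8d and between BF-4d and BF-8d.

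ACTG2, the enteric smooth muscle gamma-actin, followed the same order of group means at a lower level. In BF libraries it was at 119, 116 and 90.5 FPKM on day 0, at 5.85, 9.22 and 36.6 FPKM on day 2, at 3.25, 1.62 and 0.583 FPKM on day 4 and at 0.225, 0.461 and 0.379 FPKM on day 8. In IMF libraries it was at 125, 147 and 171 FPKM on day 0, at 38.5, 43.8 and 51.5 FPKM on day 2, at 64.7, 66.8 and 81.4 FPKM on day 4 and at 10.9, 18.3 and 16.7 FPKM on day 8. Only BF-2d and IMF-8d overlapped among neighbours in the order. The BF-0d mean was 306 times the BF-8d mean, the largest ratio among the 10 genes for that pair of groups. The coding sequences of ACTA2 and ACTG2 were 84.7% identical with a longest identical run of 35 bases, which is shorter than the reads given in the methods. The striated muscle actins ACTA1 and ACTC1, also close in sequence, reached at most 0.0148 and 0.0333 FPKM in any library.

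TAGLN, an actin-binding protein of smooth muscle and fibroblasts, was the second most abundant on day 0. In BF libraries it was at 691, 727 and 741 FPKM on day 0, at 81.1, 127 and 396 FPKM on day 2, at 49.6, 37.9 and 9.29 FPKM on day 4 and at 14.4, 9.62 and 10.7 FPKM on day 8. In IMF libraries it was at 1078, 1093 and 1379 FPKM on day 0, at 578, 555 and 675 FPKM on day 2, at 863, 882 and 811 FPKM on day 4 and at 282, 245 and 377 FPKM on day 8. The group means ran IMF-0d, IMF-4d, BF-0d, IMF-2d, IMF-8d, BF-2d, BF-4d and BF-8d, with overlap between IMF-8d and BF-2d and between BF-4d and BF-8d. Its IMF-4d libraries lay above the BF-0d libraries, and its IMF-8d mean was still 25.5% of the IMF-0d mean. TAGLN also differed between depots by 4.58 (log2, SE 0.47, limma adjusted p 4.2e-07) on day 8, beside 4.86 (SE 0.55, adjusted p 1.6e-06) for ACTA2 and 3.56 (SE 0.41, adjusted p 2.2e-06) for ACTG2. The other genes differed by 1.05 to 1.93 on that day, on a scale that compresses values under 1 FPKM. With a pseudocount of 0.1 the differences of CNN1, DES and LMOD1 were 3.61, 3.50 and 2.95, and the ratio of mean FPKM was 18.9 for CNN1 and 30.3 for DES, beside 26.0 for TAGLN and 29.4 for ACTA2.

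CNN1, calponin, was at 19.6, 18.9 and 18.8 FPKM in BF-0d libraries and at 41.3, 48.9 and 58.5 FPKM in IMF-0d libraries. In BF it was at 1.42, 2.39 and 9.83 FPKM on day 2, at 0.714, 0.163 and 0.121 FPKM on day 4 and at 0.249, 0.0569 and 0.140 FPKM on day 8. In IMF it was at 16.2, 16.4 and 20.7 FPKM on day 2, at 22.2, 24.9 and 22.3 FPKM on day 4 and at 2.38, 2.73 and 3.31 FPKM on day 8. IMF libraries lay above BF libraries on each day, and the IMF-2d and BF-0d libraries overlapped. On the FPKM + 1 log scale, differences between BF values below 1 FPKM are compressed.

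**Figure D2:**
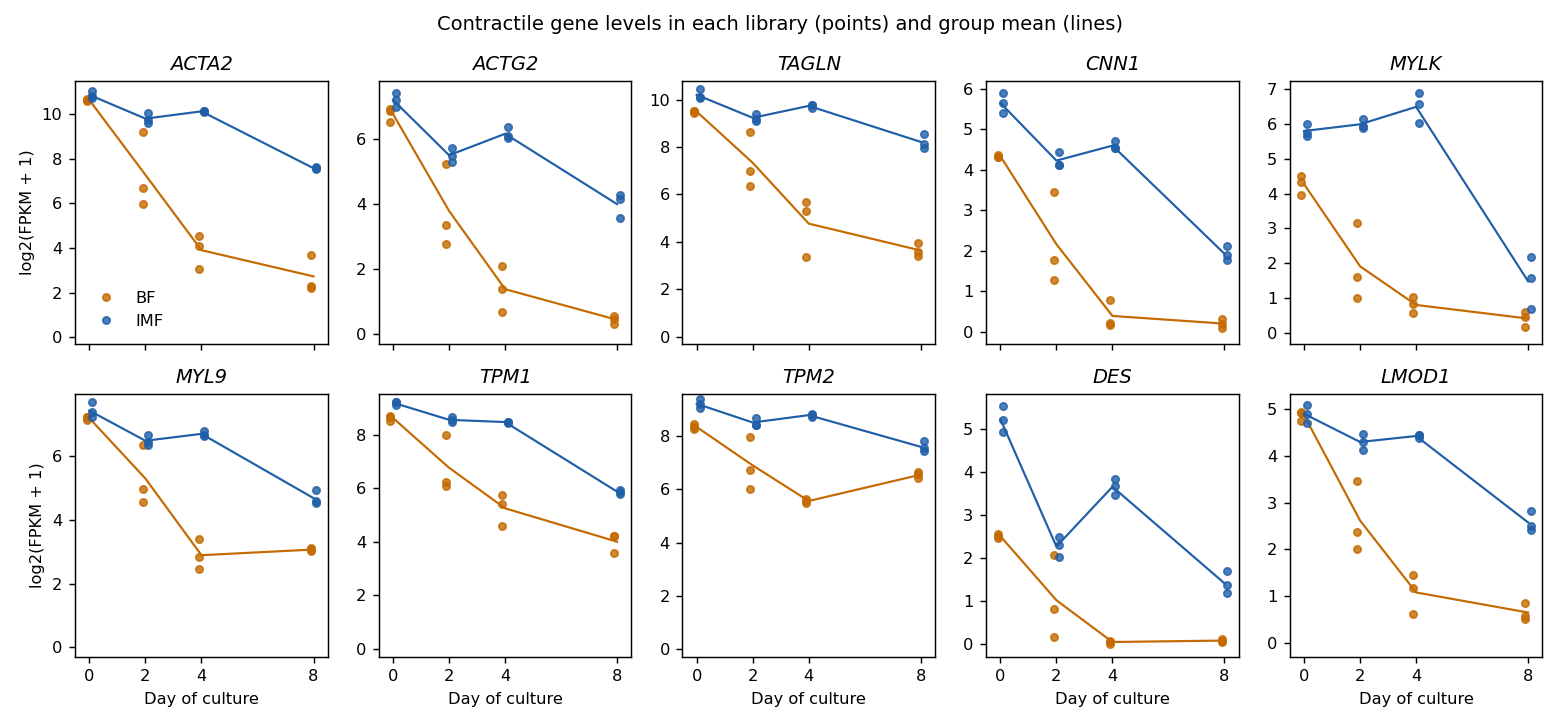
Level of each of the 10 genes in each library, as log2(FPKM + 1) (y axis, 1 panel per gene with its own scale), against the day of culture (x axis); points are libraries and lines join group means, BF in orange and IMF in blue. IMF means stayed near or above the BF-0d mean through day 4 for MYLK, TAGLN, CNN1, TPM1, TPM2 and DES, and the high point of BF-2d is the third library in each panel.

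MYLK, the kinase that phosphorylates the regulatory light chain, had its highest mean in IMF cells on day 4 and not on day 0. Its IMF libraries were at 52.0, 62.4 and 49.5 FPKM on day 0, at 60.5, 57.6 and 69.3 FPKM on day 2, at 63.4, 92.8 and 117 FPKM on day 4 and at 1.98, 3.54 and 0.622 FPKM on day 8. Days 0 to 4 overlapped from one to the next, the IMF-4d mean was 167% of the IMF-0d mean, and the IMF-8d mean was 3.75% of the IMF-0d mean. In BF it was at 19.1, 14.7 and 21.7 FPKM on day 0, at 2.05, 0.995 and 7.87 FPKM on day 2, at 1.04, 0.777 and 0.489 FPKM on day 4 and at 0.393, 0.136 and 0.519 FPKM on day 8. From BF-2d down, the neighbouring groups IMF-8d, BF-4d and BF-8d overlapped in turn. It was the only one of the 10 genes that did not pass the thresholds between depots on day 8 (log2 difference 1.06, SE 0.39, limma adjusted p 0.038). Its mean in IMF-8d was 5.86 times that in BF-8d, and with a pseudocount of 0.1 in place of 1 the log2 difference was 2.08 and passed them. On day 2, by contrast, it had the largest difference of the 10 (4.07, SE 0.39, adjusted p 4.0e-07).

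MYL9, the light chain that this kinase acts on, was at 138, 148 and 149.8 FPKM in BF-0d and at 148, 167 and 205 FPKM in IMF-0d libraries, and the ranges overlapped. In BF it was at 22.7, 30.2 and 81.3 FPKM on day 2, at 9.50, 6.09 and 4.48 FPKM on day 4 and at 7.14, 7.44 and 7.60 FPKM on day 8. In IMF it was at 81.5, 85.2 and 99.8 FPKM on day 2, at 101, 110.1 and 98.7 FPKM on day 4 and at 23.1, 22.0 and 29.6 FPKM on day 8. The BF-4d and BF-8d ranges overlapped, and so did those of IMF-2d and IMF-4d. In IMF cells on day 8 MYL9 was at 14.4% of its day 0 mean and MYLK at 3.75%, a difference that was not tested.

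The tropomyosin genes were the most abundant on day 0 after ACTA2 and TAGLN. TPM2 was at 307, 322 and 349 FPKM in BF-0d libraries, at 63.5, 107 and 247 FPKM on day 2, at 49.0, 44.1 and 46.3 FPKM on day 4 and at 100.1, 85.0 and 95.4 FPKM on day 8. TPM1 was at 365, 408 and 403 FPKM in BF-0d libraries, at 73.7, 65.8 and 254 FPKM on day 2, at 52.4, 41.1 and 23.3 FPKM on day 4 and at 17.7, 10.8 and 17.5 FPKM on day 8. Each BF-8d library lay above each BF-4d library for TPM2 and below for TPM1. From day 4 to day 8 the log2 difference was 0.99 for TPM2 (SE 0.28, limma adjusted p 0.017) and -1.25 for TPM1 (SE 0.34, adjusted p 0.014), and neither passed the adjusted p limit of 0.01. The difference between the pair was not tested. In IMF cells TPM1 was at 584 ± 25.1, 375 ± 26.4, 353 ± 5.38 and 57.4 ± 3.23 FPKM on days 0, 2, 4 and 8, and TPM2 at 600.2 ± 68.7, 368 ± 42.0, 445 ± 16.0 and 195 ± 26.6 FPKM (SD, n = 3). Among neighbours in the order of group means, BF-0d, IMF-2d and IMF-4d overlapped in turn for TPM1, and IMF-2d with BF-0d and IMF-8d, BF-2d and BF-8d in turn for TPM2. TPM2 had the smallest day 0 to day 8 change in both depots, with a log2 difference of -1.79 in BF (SE 0.28, adjusted p 2.3e-05) and -1.62 in IMF (SE 0.28, adjusted p 1.2e-04). The coding sequences of the pair were 76.0% identical, with a longest identical run of 20 bases.

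DES, the muscle intermediate filament gene, showed the widest gap between depots before induction. It was at 4.67, 4.50 and 4.88 FPKM in BF-0d libraries and at 29.6, 36.2 and 45.3 FPKM in IMF-0d libraries. In IMF it was at 3.96, 3.03 and 4.56 FPKM on day 2, at 11.8, 10.01 and 13.2 FPKM on day 4 and at 1.27, 1.57 and 2.22 FPKM on day 8. Each IMF-4d library lay above each IMF-2d library, and the log2 difference from day 2 to day 4 was 1.39 (SE 0.29, limma adjusted p 0.043), short of the limit. The IMF-2d libraries also entered the comparison that helped to choose DES. In BF it was at 0.109, 0.764 and 3.22 FPKM on day 2, at 0.0548, 0.0384 and 0 FPKM on day 4 and at 0.0480, 0.0885 and 0.0301 FPKM on day 8. The third BF-4d library is thus listed at 0, which can be a failed estimate. In the order of its group means IMF-0d and IMF-4d came first, BF-0d overlapped with IMF-2d, IMF-8d with BF-2d, and BF-8d with BF-4d. DES was the only one of the 10 genes whose day 2 ranges overlapped between depots, through the third BF-2d library.

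LMOD1, the leiomodin, overlapped between depots on day 0, at 26.0, 29.7 and 29.4 FPKM in BF and at 25.2, 29.0 and 33.2 FPKM in IMF libraries. In BF it was at 4.20, 3.05 and 9.98 FPKM on day 2, at 1.74, 1.24 and 0.530 FPKM on day 4 and at 0.815, 0.492 and 0.421 FPKM on day 8. In IMF it was at 18.6, 16.6 and 21.2 FPKM on day 2, at 21.0, 19.9 and 20.7 FPKM on day 4 and at 4.64, 4.35 and 6.03 FPKM on day 8. The depots overlapped on no later day. The log2 difference on day 0 was 0.03 (SE 0.25, 95% interval -0.50 to 0.56, limma adjusted p 0.98), and its sign turned under another scaling.

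**Figure D3:**
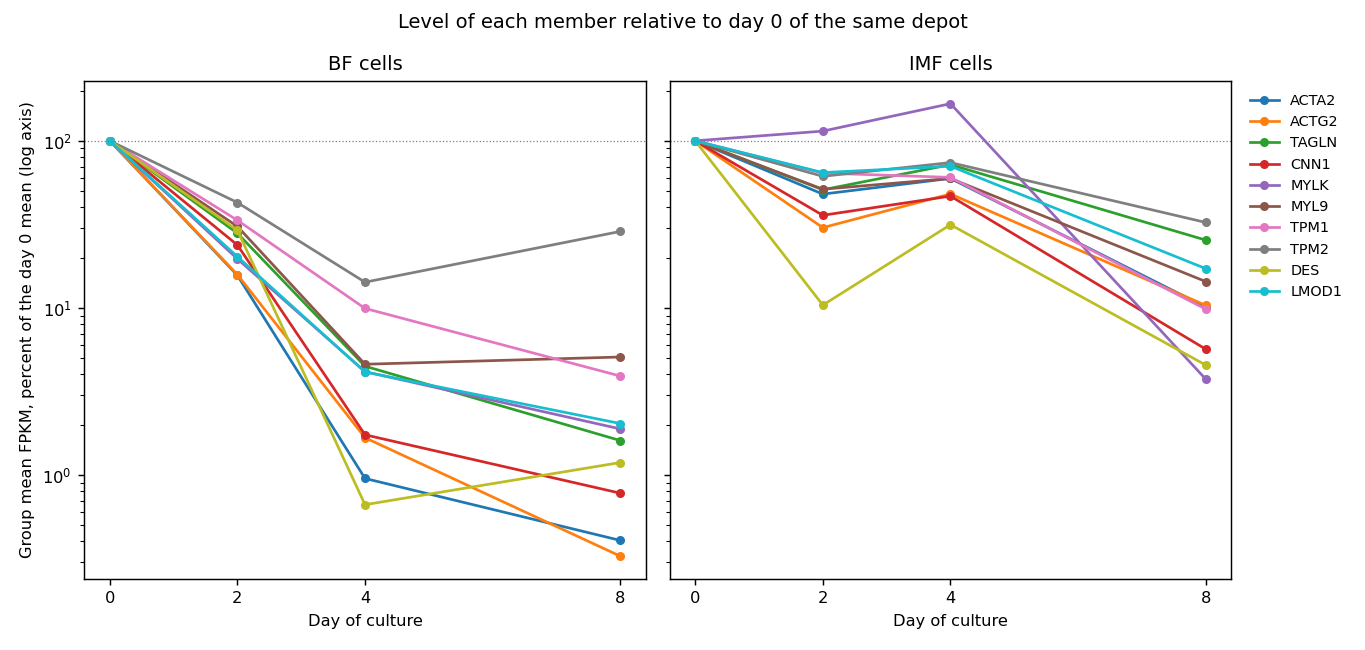
Group mean FPKM of each of the 10 genes as a percentage of its day 0 mean in the same depot (y axis, log axis) against the day of culture (x axis), BF in the left panel and IMF in the right. In BF 8 of the 10 lines lay under 5% on day 4 while TPM1 and TPM2 lay at 9.93 and 14.3%. In IMF cells the lines lay between 31.5% (DES) and 167% (MYLK) on day 4.

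Changes over time within BF cells were tested first. A gene was called when its limma adjusted p was under 0.01 and its absolute log2 difference at least 1. From day 0 to day 2, 10 of the 10 genes were lower, against 6.59% of the 16135 tested genes called in either direction and 3.87% called lower. The log2 differences ran from -1.44 (TPM2) to -3.36 (ACTA2), with a median of -2.17 beside -0.04 over all tested genes. The ranges of BF-0d and BF-2d did not overlap for 10 of 10 genes, with BF-0d above, as for 23.3% of all genes. Without the third BF-2d library 10 of 10 genes were again called and ACTA2 stood at -4.32. In a fit of only the compared groups, 0 of 10 were called by limma and 10 of 10 had an unadjusted p under 0.05, as had 32.6% of all tested genes.

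From day 2 to day 4 in BF, 8 of 10 genes were in the called set and lower, all but DES and MYLK, against 3.35% of all tested genes called and 1.34% lower. This comparison helped to choose ACTA2 and is given as a description. The differences ran from -0.97 (DES) to -3.38 (ACTA2), with a median of -1.66 beside 0.02 over all genes. The place of DES holds on this scale only, since its ratio of mean FPKM, 43.9, was the largest of the 10 (16.4 for ACTA2), and with a pseudocount of 0.1 it stood at -2.71 and was in the called set. That ratio rests on a BF-4d mean of 0.0311 FPKM and on a BF-2d mean led by the third library, at 3.22 FPKM. For 9 of 10 genes BF-2d lay wholly above BF-4d (13.3% of all genes), the exception being MYLK. Without the third BF-2d library 6 of 10 were called, TPM1 and TPM2 dropping out, and the differences ran from -0.44 (DES) to -2.42 (ACTA2). In the fit of only the compared groups the called set held 0 of the 10.

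Between day 4 and day 8 in BF, limma called 0 of 10 genes, against 2.93% of all, and 5 of 10 had an unadjusted p under 0.05, as had 32.2% of all. ACTG2 and TPM1 lay wholly lower on day 8, as did 21.8% of all genes, and TPM2 wholly higher, as did 10.4%. For the other 7 the ranges overlapped. Over the whole course from day 0 to day 8, 10 of 10 genes were lower, against 13.7% of all genes called in either direction and 7.39% called lower. The differences ran from -1.79 (TPM2) to -7.92 (ACTA2), with a median of -4.18 beside -0.06 over all genes. Its ranges did not overlap for 10 of 10 genes (37.0% of all genes, BF-0d above).

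Changes within IMF cells were tested in the same way. From day 0 to day 2, CNN1 and DES were in the called set and lower (0.787% of all genes called and 0.459% lower), with log2 differences of -1.42 (SE 0.33) and -2.96 (SE 0.29). This comparison helped to choose DES. The other 8 ran from -1.70 (ACTG2, SE 0.41) to 0.19 (MYLK, SE 0.39), and the median of the 10 was -0.96 beside -0.01 over all genes. IMF-0d lay wholly above IMF-2d for 9 of 10 genes (20.6% of all), all but MYLK. When each library was left out in turn, the call of CNN1 held in 5 of 24 fits.

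From day 2 to day 4 in IMF, limma called 0 of 10 genes, against 0.0372% of all, and 1 of 10 had an unadjusted p under 0.05, as had 8.34% of all. In a fit of only the compared groups 0 were called and 8 of 10 had an unadjusted p under 0.05, beside 18.8% of all genes. The largest difference was 1.39 for DES, as above. The estimates were above 0 for 9 of 10 genes, with a median of 0.35 beside 0.02 over all genes. For 6 of 10 the IMF-4d libraries lay wholly above the IMF-2d libraries (14.5% of all genes), namely ACTA2, ACTG2, TAGLN, CNN1, TPM2 and DES. DES alone was called without the first or without the third BF-2d library, which enter through the shared estimate of the spread.

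Between day 4 and day 8, 9 of 10 genes in IMF were in the called set and lower, all but TAGLN, against 7.25% of all called and 3.08% lower. This comparison helped to choose MYLK, which had the largest difference at -4.997 (SE 0.39). The other 9 ran from -1.19 (TPM2, SE 0.28) to -2.67 (CNN1, SE 0.33). IMF-4d lay wholly above IMF-8d for 10 of 10 genes, as for 32.8% of all. From day 0 to day 8 in IMF, 10 of 10 genes were lower by limma, against 9.04% of all called and 4.49% lower. The differences ran from -1.62 (TPM2) to -4.31 (MYLK, SE 0.39, adjusted p 5.6e-08), with a median of -3.25 beside -0.05 over all genes. The tested intervals share libraries with those that helped to choose the genes.

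The depots were then compared on each day. On day 0, 2 of 10 genes were higher in IMF, against 2.58% of all genes called and 1.87% higher. DES differed by 2.72 (SE 0.29, limma adjusted p 1.3e-06) and CNN1 by 1.32 (SE 0.33, adjusted p 0.0093). The IMF-0d libraries also entered the comparison that helped to choose DES, so its p-value is not independent of that choice. MYLK differed by 1.52 (SE 0.39, adjusted p 0.011), TPM2 by 0.87 (SE 0.28, adjusted p 0.040) and ACTA2 by 0.23 (SE 0.55, 95% interval -0.91 to 1.37, adjusted p 0.87). IMF lay wholly above BF for 8 of 10 genes (23.5% of all), all but MYL9 and LMOD1. DES was called whichever library was left out, whereas CNN1 was called in 5 of 24 such fits.

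On day 2, 10 of 10 genes were higher in IMF, against 4.74% of all called and 2.71% higher. The differences ran from 1.19 (MYL9, SE 0.30, limma adjusted p 0.0064) to 4.07 (MYLK), with a median of 1.75 beside 0.07 over all genes. IMF lay wholly above BF for 9 of 10 (23.2% of all). Without the third BF-2d library 10 of 10 were called and MYLK stood at 4.68. The count was 5 without the first BF-2d, the second BF-2d or the third IMF-2d library, 6 without the first IMF-2d library, and 0 by limma in a fit of only the compared groups, where 10 of 10 had an unadjusted p under 0.05, as had 27.3% of all genes.

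Day 4 helped to choose ACTA2 and is given as a description. All 10 genes were in the called set and higher in IMF, against 11.3% of all called and 6.6% higher. ACTA2 differed by 6.24 (SE 0.55), MYLK by 5.67 (SE 0.39), TAGLN by 4.97 (SE 0.47) and ACTG2 by 4.78 (SE 0.41). The lowest values were 3.22 for TPM1 (SE 0.34) and 3.23 for TPM2 (SE 0.28), and the median was 4.01 beside 0.07 over all genes. As a ratio of mean FPKM, IMF-4d over BF-4d was 9.07 for TPM1, 73.8 for ACTA2 and 119 for MYLK, and that of DES rested on BF values under 0.1 FPKM. The depots did not overlap for 10 of 10 genes, with IMF above, as for 33.6% of all genes.

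On day 8, 9 of 10 genes were higher in IMF, all but MYLK, against 6.96% of all called and 4.31% higher. Apart from ACTA2, TAGLN and ACTG2 above, LMOD1 differed by 1.93 (SE 0.25, limma adjusted p 8.7e-06), TPM1 by 1.87 (SE 0.34, adjusted p 2.6e-04) and TPM2 by 1.05 (SE 0.28, adjusted p 0.0059). The call of TPM2 was lost with no filter on low values (1.05, limma adjusted p 0.011), with median ratio scaling (0.91) and with quantile normalization (0.80), and it held in 19 of 24 fits that left out 1 library. The median of the 10 was 1.80 beside 0.04 over all genes. IMF lay wholly above BF for 10 of 10 genes (30.8% of all), MYLK included.

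**Figure D4:**
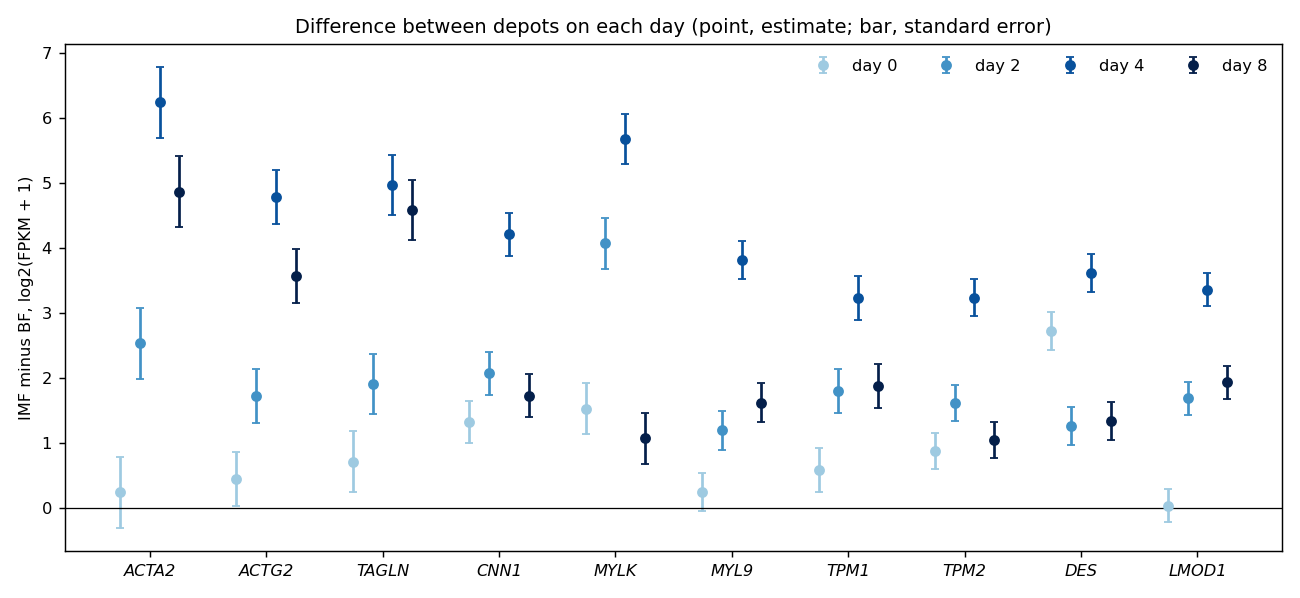
Difference between depots, IMF minus BF in log2(FPKM + 1) (y axis), for each of the 10 genes (x axis) on days 0, 2, 4 and 8 (light to dark points); bars are standard errors. Day 4 points were the highest of the 4 days for each gene, from 3.22 (TPM1) to 6.24 (ACTA2), and those of ACTA2, ACTG2 and TAGLN remained above 3.5 on day 8.

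Whether a change over an interval differed between depots was read from interaction contrasts, the IMF change minus the BF change. These contain the comparisons that chose the genes and are a description. From day 0 to day 2, MYLK (2.54, SE 0.55) and LMOD1 (1.65, SE 0.36) were in the called set, against 2.45% of all genes called and 1.23% above 0. Without the third BF-2d library 8 of 10 were, and DES was the only gene with a value below 0 (-1.47, SE 0.41, with all libraries). From day 2 to day 4, 7 of 10 were in the called set with values above 0 (3.06% of all called and 1.76% above 0), from 1.67 for LMOD1 to 3.71 for ACTA2. Without the third BF-2d library 8 of 10 were, and ACTA2 stood at 2.75. The count was 3 without either of the first 2 IMF-2d libraries or any 1 IMF-4d library, and 4 without the third BF-4d library. Between day 4 and day 8, 6 of 10 were in the called set with values below 0 (6.39% of all called and 2.58% below 0), from -1.42 for LMOD1 (SE 0.36) to -4.61 for MYLK (SE 0.55). With a pseudocount of 0.1 this count was 3, CNN1, DES and LMOD1 dropping out. LMOD1 also dropped out with no filter and with a replicate block, and was in the called set in 4 of 24 fits that left out 1 library. In a fit of only the compared groups the called set held 0 of the 10 for the first interval and 0 for the second.

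The courses of the 10 genes resembled each other. Over the 24 libraries, Pearson's r between log2(FPKM + 1) of the 45 pairs ran from 0.850 to 0.986 (median 0.938), as a description over libraries that share depots and days. ACTA2 and ACTG2 had the highest r (0.986) and TAGLN and MYLK the lowest (0.850). Within the 12 IMF libraries r ran from 0.634 to 0.997 and within the 12 BF libraries from 0.797 to 0.990. Of 5391 other genes with a symbol and a highest group mean of at least 10 FPKM, those most like the mean course of the 10 were VOPP1 (r 0.984), PAOX (0.981), SDC3 (0.980), PI16 (0.980) and MTCH1 (0.978). For single genes, VOPP1 was the most alike for ACTA2 (0.985), ACTG2 (0.983) and TAGLN (0.986). ACTN1, which encodes the actin crosslinker alpha-actinin, was closest to CNN1 (0.980), the collagen gene COL1A1 to MYL9 (0.986) and the metalloprotease gene ADAM19 to MYLK (0.960). BEND6 was closest to TPM1 (0.992), ARHGEF25 to TPM2 (0.972), MTCH1 to DES (0.941) and IDH1 to LMOD1 (0.981).

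Other genes of the pathway were counted from lists. SRF was at 14.9 ± 0.973 FPKM in BF-0d and 5.16 ± 0.347 FPKM in BF-8d libraries (SD, n = 3), and was lower by 1.36 on the log2 scale (log2 difference -1.36, SE 0.15, limma adjusted p 3.6e-07). Between depots SRF differed by 0.62 on day 4 (SE 0.15, adjusted p 0.0023), under the limit of 1. From day 0 to day 2 in BF, SRF was not called with all libraries and was called lower without the third BF-2d library. Without that library SRF was also in the called set, above 0, for the IMF change minus the BF change over that interval. Its coactivators MRTFA and MRTFB were not called in any of the comparisons, and MYOCD, the coactivator of smooth muscle, reached at most 0.127 FPKM in any library and was not tested.

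Of 11 other tested genes of the smooth muscle contractile apparatus, 6 were lower from day 0 to day 2 in BF (3.87% of all genes) and 5 from day 0 to day 8 (7.39%), while SMTN (smoothelin) was higher over the longer span. The list medians were -1.01 and -1.72, and the count on day 2 was 6 again without the third BF-2d library. On day 4, 5 of 11 were higher in IMF (6.6% of all) and 0 lower, with a list median of 1.16. SYNPO2, an actin bundler, resembled DES in being higher in IMF on day 0, by 2.65 (SE 0.25, limma adjusted p 1.9e-07), and differed by 4.17 on day 4 (SE 0.25, adjusted p 2.0e-10). HSPB6, a small heat shock protein of muscle, differed by 4.17 on day 4 (SE 0.31, adjusted p 3.7e-09) and CALD1 (caldesmon) by 1.69 (SE 0.26, adjusted p 2.9e-05). MYH11, the smooth muscle myosin heavy chain that defines mature smooth muscle, reached at most 0.808 FPKM in any library, so this defining marker was near 0 in every group.

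Among 8 tested broadly expressed actin, myosin and tropomyosin genes, 5 were lower from day 0 to day 8 in each depot (7.39% of all genes in BF and 4.49% in IMF), with list medians of -1.25 in BF and -1.26 in IMF, and on day 4 ACTG1, CNN2, MYH9 and MYL6 were higher in IMF (6.6% of all, list median 1.10). MYL6, an essential light chain, differed by 1.95 on day 4 (SE 0.19, limma adjusted p 8.9e-08). Of 12 stress fibre and focal adhesion genes, 7 were lower from day 0 to day 2 in BF and 2 in IMF (3.87 and 0.459% of all), with list medians of -1.19 and -0.62. The BF count was 9 without the third BF-2d library. From day 0 to day 8, 7 were lower in BF and 9 in IMF (7.39 and 4.49% of all), with medians of -1.20 and -1.50. Between depots 7 were higher in IMF on day 4 and 1 on day 8 (6.6 and 4.31% of all), with medians of 1.10 and 0.37. TGFB1I1 (HIC-5), a focal adhesion adaptor, differed by 2.18 on day 4 (SE 0.19, adjusted p 3.3e-08), and VCL (vinculin) by 0.92 (SE 0.22, adjusted p 0.0026), under the limit.

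**Figure D5:**
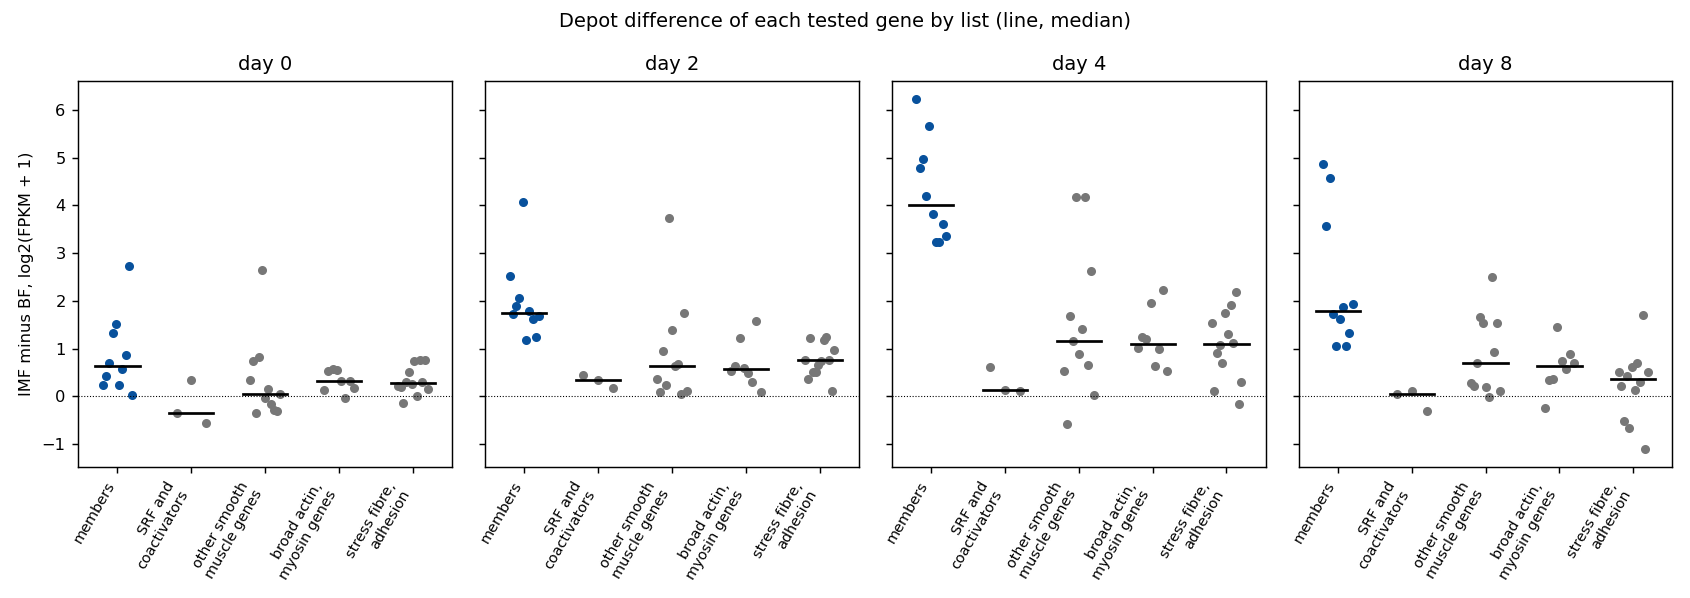
Difference between depots, IMF minus BF in log2(FPKM + 1) (y axis), of each tested gene (points) in 5 lists (x axis) on days 0, 2, 4 and 8, with the list median as a line. On day 4 the 10 contractile genes lay at 3.22 to 6.24, the median of the 11 other smooth muscle genes at 1.16 and that of the SRF list at 0.13.

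Markers of other cell types were read beside these results. The 12 myogenic and striated muscle markers in the table summed to 0.286 to 2.21 FPKM, with MYF5, MYMK and MYOD1 at 0 in all libraries. The sum was highest in IMF-0d, at 1.71 to 2.21 FPKM, where DES was at 29.6 to 45.3 FPKM. The 8 pericyte and vascular smooth muscle markers summed to 199 to 291 FPKM in BF-4d libraries, where the contractile genes were low, and to 124 to 136 FPKM in IMF-4d libraries, where they were high. PDGFRB made up most of these sums, and PDGFRB and RGS5 were lower in IMF on day 4. CSPG4 and NOTCH3 were higher in IMF on days 2 and 4, alongside the contractile genes and also without the third BF-2d library, and the median of the 8 on day 4 was 0.21. Without that library RGS5 was higher from day 0 to day 8 in both depots, whereas CSPG4 was lower in both and ABCC9 lower in BF. On day 0, ABCC9 was lower and CSPG4 higher in IMF in that fit. The 5 endothelial markers summed to 4.45 to 5.18 FPKM in BF-0d and 1.04 to 1.98 FPKM in BF-4d, and to 3.87 to 5.20 FPKM in IMF-0d and 3.57 to 3.66 FPKM in IMF-4d. PECAM1, the 1 of them that was tested, was lower in BF on days 2 and 8 than on day 0, and higher in IMF than in BF on day 8. The 6 immune markers summed to 3.15 to 18.9 FPKM over all libraries, and none of the 3 tested was called in any comparison.

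The summed level of the 6 stromal markers, led by collagen genes, went from 13449.6 to 14693 FPKM in BF-0d to 3717 to 5880 FPKM in BF-4d, and at 12398 to 12611 FPKM in IMF-4d and 7197 to 8263 FPKM in IMF-8d. COL1A1, COL1A2 and DCN were lower from day 0 to day 8 in BF and higher in IMF on day 4. PDGFRA went the other way, higher from day 0 to day 8 in both depots and lower in IMF on days 2 and 4, and LUM was lower in IMF on day 8. Without the third BF-2d library COL1A1 was also lower from day 0 to day 8 in IMF, and higher in IMF than in BF on days 2 and 8. The median of the 6 was -0.35 from day 0 to day 8 in BF and 0.98 between depots on day 4. The part of these other cell types in the results was not tested.

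The summed level of the 8 adipocyte markers went from 9.16 to 10.9 FPKM in BF-0d to 182 to 318 FPKM in BF-4d and 281 to 622 FPKM in BF-8d. In IMF it was 2.79 to 3.67 FPKM on day 0, 11.4 to 14.3 FPKM on day 4 and 97.2 to 143 FPKM on day 8. LPL set most of these sums from day 4 on in BF and on day 8 in IMF. Of the 5 that were tested, LPL was higher and PPARG lower from day 0 to day 8 in BF, with a list median of 0.06, and LPL alone was called, and higher, over that span in IMF. In BF, FABP4 was lower from day 0 to day 2 and higher from day 4 to day 8, and CEBPA was higher from day 0 to day 2 and lower from day 2 to day 4. In IMF, LPL was higher and CEBPA lower on day 8 than on day 4. Between depots, FABP4 and PPARG were lower in IMF on day 0, CEBPA, LPL and PPARG on day 2, LPL on day 4 and FABP4 on day 8. Without the third BF-2d library PPARG was not called between depots on day 2, LPL also was on day 8, and the calls named here for PECAM1, PDGFRA, FABP4 and CEBPA were made again. The defining markers ADIPOQ, PLIN1 and LEP reached at most 0.230, 0.0773 and 0.0313 FPKM in any library and were thus at or near 0 in the cells labelled adipocytes. The part of adipocyte formation in the contractile gene values was not tested.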

How the data were processed

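The deposited table held FPKM values, 1 per gene and library, of polyadenylated RNA. The authors aligned reads with HISAT2 to Sscrofa11.1 and quantified transcripts with StringTie 1.3.4d against the Ensembl annotation, with DESeq2 1.6.3 listed for differential expression per the labels. FPKM divide out library size and transcript length, so DESeq2 and other count tests were not used here. Groups came from the sample titles.

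Values were analysed as log2(FPKM + 1). Genes with a summed FPKM over 1 were kept (16135), and limma 3.58.1 (trend and robust, R 4.3.3) fitted a mean for each of the 8 groups across the 24 libraries. Adjusted p-values are Benjamini-Hochberg over all tested genes. The script was tested on simulated data. Calls need an adjusted p under 0.01 and an absolute log2 difference of at least 1, on a scale that understates changes of low genes. The genes and lists were chosen with earlier results of these data known. Named are the 10 genes, for each and for their mean course the most alike genes by Pearson's r, and up to 4 examples per list. SYNM, PLN, FHL1, MYH10, MYL12B, TPM3, TAGLN2, FHL2, MYH2, MYH7, TTN, VWF and THY1 were not matched by symbol and not analysed here. Alternatives were a pseudocount of 0.1, no filter on low values, median ratio scaling, quantile normalization, a fit of only the compared groups, a replicate block and leaving out each library. For the other lists, leaving out the third BF-2d library was chosen after seeing the data. Sequences and positions are from the RefSeq annotation and genome of Sscrofa11.1. 1 further list of genes and 1 stretch of upstream sequence are not reported here.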

Additional observations from a re-analysis of the deposited data

Results flagged for a closer look

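The change over an interval differed between depots, by the interaction contrast across all genes, for 15 gene and interval pairs of the 10 contractile genes, against 2.45, 3.06 and 6.39% of all genes over the 3 intervals. These contrasts contain the comparisons that helped to choose the genes, so the values are a description. Between day 0 and day 2, MYLK (2.54) and LMOD1 (1.65) fell in BF and less or not at all in IMF, and with a pseudocount of 0.1, with no filter or in a fit of only the compared groups the count for this interval was 0. Between day 2 and day 4, where BF libraries fell further and IMF libraries did not, the difference was 3.71 for ACTA2, 3.07 for ACTG2, 3.07 for TAGLN, 2.14 for CNN1, 2.62 for MYL9, 2.36 for DES and 1.67 for LMOD1. The count for that interval was 4 with no filter and 0 in a fit of only the compared groups. Between day 4 and day 8, where IMF libraries fell, the difference was -2.48 for CNN1, -4.61 for MYLK, -2.20 for MYL9, -2.19 for TPM2, -2.28 for DES and -1.42 for LMOD1. With a pseudocount of 0.1, CNN1, DES and LMOD1 dropped out there, and LMOD1 was in the called set in 4 of 24 fits that left out 1 library. Each value is a log2 difference of FPKM + 1, IMF change minus BF change.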

How the results depend on the processing

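Of 4500 values of a gene in a comparison under an alternative, 4248 kept their direction and their side of the thresholds, 206 dropped below them, 39 rose past them and 7 changed sign. None of the 7 was a called value. LMOD1 between depots on day 0 became -0.048 with median ratio scaling and -0.11 with quantile normalization, and ran from -0.065 (without the third IMF-0d library) to 0.13 when 1 library was left out. In the same way the TAGLN interaction from day 4 to day 8 ran from -0.83 to 0.32 and MYL9 from day 4 to day 8 in BF from -0.040 to 0.43, where the values that changed sign were without the third BF-4d library. CNN1 in that interval ran from -0.30 to 0.0055, the latter without the first BF-4d library. The cause of changes in the counts of genes called out of 10 was not tested. Those that moved by over 1.5 times were these. In a fit of only the compared groups they were 0 for BF day 0 to day 2, BF day 2 to day 4, IMF minus BF on day 2 and the first and second interactions, and 4 (from 2) for IMF day 0 to day 2. With the pseudocount of 0.1 they were 1 (from 2) for IMF day 0 to day 2 and for depots on day 0, 0 (from 2) for the first interaction and 3 (from 6) for the third. With no filter they were 1 for IMF day 0 to day 2 and for day 0, 0 for the first interaction and 4 (from 7) for the second. Median ratio scaling gave 1 (from 0) for BF day 4 to day 8 and 1 for day 0, quantile normalization 1 for day 0. Smaller moves were 9 for BF day 2 to day 4 (from 8), 9 for day 2 (from 10) and 10 for day 8 (from 9) with the pseudocount of 0.1, and 7 for day 2, 8 for day 8 and 5 for the third interaction with no filter. Median ratio scaling gave 9 for day 2 and 8 for day 8, quantile normalization 8 for day 8 and 10 (from 9) for IMF day 4 to day 8, and the fit of only the compared groups 10 for the latter and 3 for day 0. The summed FPKM of the 10 genes in IMF-4d was 2808 after median ratio scaling, from 3095. Leaving out 1 library gave 8 to 10 for BF day 0 to day 2 (8 without the first BF-2d library), 6 to 9 for BF day 2 to day 4, 8 to 10 for IMF day 4 to day 8, 9 to 10 for IMF day 0 to day 8, 7 to 10 for day 8 (7 without the third IMF-8d library), 0 to 2 for BF day 4 to day 8 (2 without the third BF-4d library), 1 to 3 for IMF day 0 to day 2, 0 to 1 for IMF day 2 to day 4, 1 to 3 for day 0, 5 to 10 for day 2, 0 to 8 for the first interaction (8 without the third BF-2d library), 3 to 8 for the second and 5 to 7 for the third. The counts were 10 to 10 for day 4 and for BF day 0 to day 8.

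No pairing of samples by replicate number was seen. Deviations from the group means over all genes correlated between same-numbered libraries at -0.454 to 0.457 (median 0.0014, 9 of 84 pairs over 0.1), and 27.4% of comparisons were best with the own number. Between other-numbered libraries they correlated at -0.514 to 0.446 (median -0.0011, 20 of 168 pairs over 0.1). With 3 libraries per group these values cannot exclude that a number stands for a piglet. With a replicate block the second interaction gave 8 (from 7) and the third 5 (from 6), and the other counts were equal to those without the block. The depth of the libraries is unknown, which leaves values under 1 FPKM, as for DES, CNN1 and MYLK in BF from day 4, without a counting error.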
